A study of Mus musculus with 6 samples.

Results

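Lymphocytes, granulocytes, mast cells, red cells and platelets each leave a few diagnostic transcripts, and 39 such genes were examined in sorted dural lymphatic endothelial cells (LECs). They were found by gene symbol among the 55401 genes of the tables and make up the blood and marrow lineages other than macrophages. There were 7 T cell genes, 6 B and plasma cell genes, 4 NK and cytotoxic genes, 9 neutrophil and granule genes, 7 mast cell genes, 5 red cell genes and 1 platelet gene. They were chosen by symbol as known lineage markers, with earlier results of these data known, so the choice was not independent of them.

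LECs line lymphatic vessels, and those of the dura mater, the outer layer of the meninges, were sorted as CD31+ Podoplanin+ LYVE-1+ CD45- cells from a digest of PBS-perfused tissue of young male wild-type C57BL/6J mice. Both groups carried an AAV9 virus injected into the cerebrospinal fluid. In the AAV-VEGF-C group it encoded full-length mouse VEGF-C, and in the AAV-CTRL group a soluble fusion of the VEGFR-3 domains that do not bind VEGF-C. Bulk RNA was sequenced from 3 libraries per group, each a pool of 10 to 12 meninges from 1 of 3 repeats of the experiment, so a library is an average over animals. The libraries are called AAV-CTRL 1, 2 and 3 and AAV-VEGF-C 1, 2 and 3, with the number of the experiment, and values below are listed in that order.

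The lineages are told apart by proteins that are typical of each, though some are shared with other cells. T cells read antigen through a receptor that signals through the CD3 chains, and B cells through an immunoglobulin that signals through CD79. Neutrophils make their granule proteins while they mature in the marrow, mast cells sit in connective tissue such as the dura and store histamine and proteases, and red cells circulate with a remnant of globin mRNA. A gate that leaves out CD45+ cells is meant to remove nearly all of these except mature red cells and platelets.

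The depth was unequal. Total counts ran from 6530269 to 12399498 in AAV-CTRL and from 564475 to 3261935 in AAV-VEGF-C, a ratio of 0.196 between the means (exact permutation, two-sided p = 0.1, which is the lowest value possible with 3 libraries a side). A level of 3 counts, taken as the floor of detection, was 0.459, 0.382 and 0.242 CPM (counts scaled by the total of their library to a common size) in AAV-CTRL against 5.31, 2.09 and 0.92 CPM in AAV-VEGF-C. Genes of 1635 olfactory, vomeronasal, taste receptor, keratin-associated and defensin loci, which LECs are not known to use, took 135 to 260 CPM in AAV-CTRL against 2700 to 6580 CPM in AAV-VEGF-C (p = 0.1 by the same exact permutation test). The 95th percentile of their TPM, a scale corrected for gene length, was 0.114 to 0.168 in AAV-CTRL against 1.02 to 1.54 in AAV-VEGF-C. This is called the silent-family level below. The gate genes *Pecam1*, *Lyve1* and *Pdpn* and the LEC genes *Prox1* and *Flt4* had at least 25 counts in every library. *Ptprc*, which encodes the excluded CD45, had 5, 1126 and 1286 counts in AAV-CTRL against 1, 177 and 245 counts in AAV-VEGF-C.

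The 39 genes together were a small part of every library. They summed to 30.9, 424 and 255 CPM in AAV-CTRL against 97.4, 220 and 605 CPM in AAV-VEGF-C. A count was found for 20, 34 and 33 of them in AAV-CTRL and for 13, 26 and 38 in AAV-VEGF-C. The first experiment was the poorest in both groups, and AAV-VEGF-C 3 was the richest library. The silent-family level was 0.114 to 0.168 TPM in AAV-CTRL against 1.02 to 1.54 TPM in AAV-VEGF-C. Counts of genes above it therefore do not compare the groups, and no share over all genes is given. Measured against this level, 13 genes lay above it in all 3 AAV-CTRL libraries and none in all 3 AAV-VEGF-C libraries, where *Cd3d* alone passed it in AAV-VEGF-C 1. *Cd4*, *Ighm*, *Ltf*, *Hdc*, *Hba-a2* and *Hbb-bs* passed it in all 4 libraries of experiments 2 and 3. In bulk RNA, fewer cells of a type and less RNA per cell cannot be told apart.

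**Figure D1:**
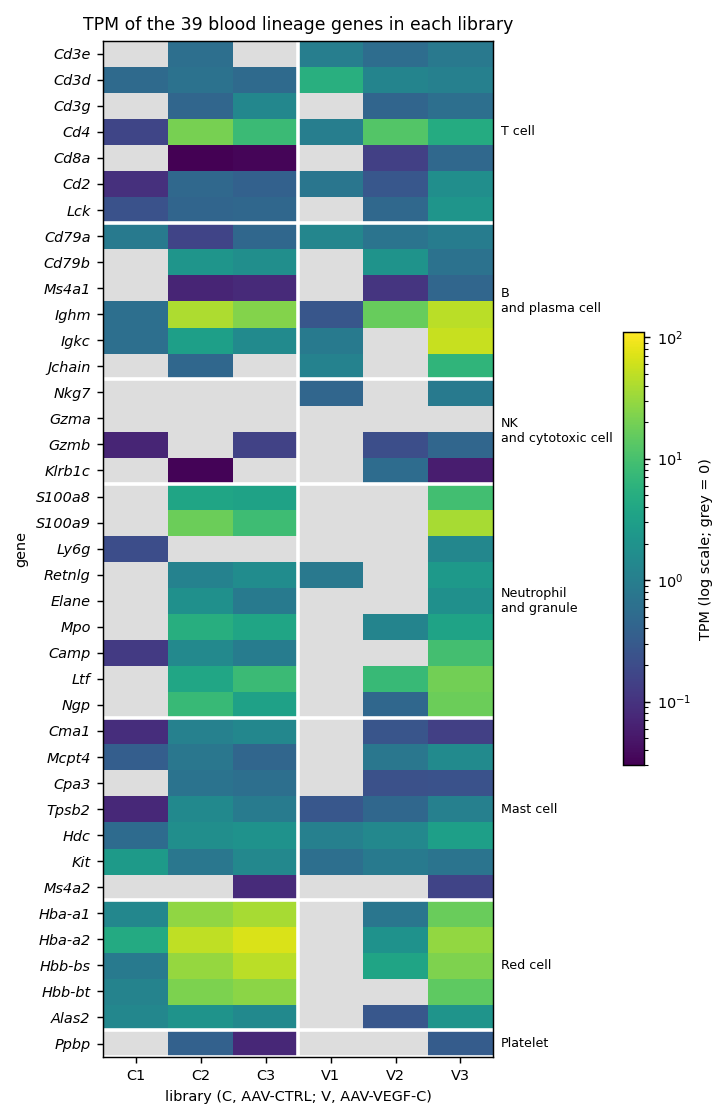
TPM of the 39 genes (rows, by lineage) in the AAV-CTRL (C) and AAV-VEGF-C (V) libraries (columns), on a log colour scale with grey for 0. C1 and V1 are mostly dark or grey, the globin rows and *Ighm* are bright in C2, C3 and V3, and the neutrophil rows other than *Mpo* are brightest in V3.

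Between the groups, 17 of the 39 genes had enough counts to be tested, and none was higher or lower in AAV-VEGF-C by the quasi-likelihood test of edgeR at an adjusted p of 0.05. Of all 17459 genes tested, 10.5% were called higher and 0.659% lower. *Cd3d* was the only gene of the 17 with an unadjusted p under 0.05, beside 4905 of all 17459. The median log2 fold change of the 17 was 0.34, beside -0.00372 over all genes tested. By DESeq2, which does not apply this filter, *Jchain*, *Igkc* and *Cd3d* were called higher among 34 genes tested, beside 18% of all genes (1.53% lower). Without a filter on counts edgeR called *Jchain*, *Igkc*, *Cd8a*, *Nkg7*, *Cd3d*, *Cd3e* and *Camp* higher among 38, beside 21.1% of all genes (2.64% lower). None was lower in either fit. The SE of single genes, derived from the F statistic of the edgeR test, ran up to 1.56 on the log2 scale, so that a change of several-fold could pass undetected.

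**Figure D2:**
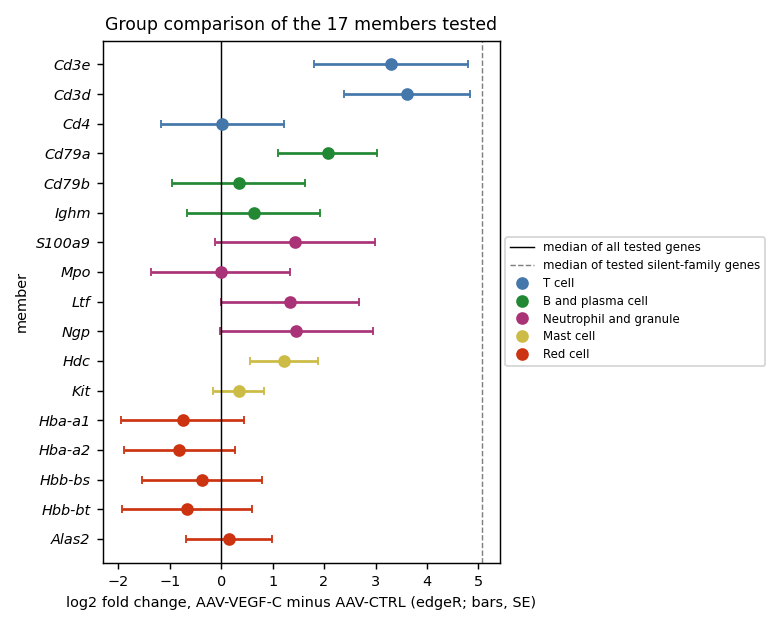
Log2 fold change of the 17 genes tested (points, coloured by lineage), AAV-VEGF-C minus AAV-CTRL by edgeR, with bars of 1 SE. The solid line is the median of all genes tested and the dashed line, at 5.06, that of the silent-family genes tested, and *Cd3d* and *Cd3e* lie furthest to the right.

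The T cell genes were dominated by a single one in experiments 2 and 3. *Cd4* (chr6:124864692-124888221, GRCm38, minus strand) encodes the coreceptor of helper T cells, and macrophages and dendritic cells can use it too. It had 6, 770 and 390 counts in AAV-CTRL against 7, 112 and 96 counts in AAV-VEGF-C. It was high in experiments 2 and 3 of both groups and at most 7 counts in experiment 1, and the groups overlapped (log2 fold change 0.02, SE 1.19, edgeR adjusted p = 0.995). Within an experiment AAV-VEGF-C had 0.797 times the CPM of AAV-CTRL in experiment 2 (95% exact interval 0.647 to 0.972, counting error only) and 0.936 times in experiment 3 (0.74 to 1.17). In experiment 1 the ratio was 13.5 (3.88 to 48.6), on 7 counts against 6. The sum of the 7 T cell genes had ratios of 19.3 (10.4 to 36.7), 0.879 (0.725 to 1.06) and 1.51 (1.25 to 1.81) in experiments 1, 2 and 3. That of experiment 1 rested on 30 counts against 18, with 16 of the 30 from *Cd3d*. The silent families had 6580 CPM in AAV-VEGF-C 1 against 260 CPM in AAV-CTRL 1, and their part in this ratio was not tested.

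The receptor genes did not share this level. *Cd3d*, a signalling chain of the T cell receptor, had 9, 13 and 2 counts in AAV-CTRL against 16, 7 and 12 counts in AAV-VEGF-C. In CPM these were 1.38, 1.65 and 0.161 against 28.3, 4.88 and 3.68, so every AAV-VEGF-C library lay above every AAV-CTRL library (log2 fold change 3.62, SE 1.22, edgeR adjusted p = 0.103, and 0.0308 in the fit that pairs the libraries of an experiment, which called 12.8% of all genes higher and 2.07% lower). In counts the groups overlapped, and the log2 fold change was 2.21 (edgeR adjusted p = 0.249) without both libraries of the first experiment. *Cd3e*, another chain, had 0, 11 and 0 counts against 5, 4 and 9, and did not pass the test (adjusted p = 0.196). It stayed under the silent-family level in each AAV-VEGF-C library, as *Cd3d* did not in AAV-VEGF-C 1 and 3. *Lck*, the kinase behind CD4 and CD8, had 2, 4 and 4 counts in AAV-CTRL against 0, 2 and 16 counts in AAV-VEGF-C. *Cd3g*, *Cd8a* and *Cd2* had at most 13 counts in a library, the *Cd8a* and *Cd2* maxima both in AAV-VEGF-C 3. The constant regions of the alpha and beta receptor chains, from the wider list, summed to 3, 15 and 1 counts in AAV-CTRL against 1, 2 and 6 in AAV-VEGF-C, so the libraries rich in *Cd4* had at most 15 of them.

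Among the B and plasma cell genes, *Ighm*, the heavy chain constant region of IgM (chr12:113418558-113422730, minus strand), was the most abundant. It had 10, 835 and 603 counts in AAV-CTRL against 1, 103 and 505 counts in AAV-VEGF-C, which were 1.53, 106 and 48.6 CPM against 1.77, 71.8 and 155 CPM. Both libraries of experiment 1 lay below the other 4, and the groups overlapped (log2 fold change 0.63, SE 1.29, edgeR adjusted p = 0.798). Its CPM in AAV-VEGF-C was 0.675 times that of AAV-CTRL in experiment 2 (0.545 to 0.83) and 3.18 times in experiment 3 (2.82 to 3.59), that is in opposite directions. *Cd79b*, a signalling chain of the B cell receptor, had no count in experiment 1, with 0, 39 and 37 counts against 0, 9 and 7. In AAV-VEGF-C 1 this allows up to 5.31 CPM, so absence there cannot be told. The CPM was 4.96 and 2.98 in AAV-CTRL 2 and 3 and 6.27 and 2.15 in AAV-VEGF-C 2 and 3. Its partner *Cd79a* had counts in experiment 1, with 15, 3 and 10 counts in AAV-CTRL against 5, 4 and 10.4 in AAV-VEGF-C. The CPM of *Cd79a* was higher in all 3 AAV-VEGF-C libraries than in any AAV-CTRL library (log2 fold change 2.07, SE 0.95, edgeR adjusted p = 0.204) while its TPM stayed under the silent-family level in all 3. *Cd3e*, *Cd3d* and *Cd79a* were the 3 tested genes of the list without overlap between groups in CPM, all higher in AAV-VEGF-C, where 20.6% of all genes tested had this pattern and 19.1% the opposite one.

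The light chain and joining chain were a matter of 1 library. *Igkc*, the kappa light chain constant region (chr6:70726435-70726966, plus strand), had 3, 17 and 9 counts in AAV-CTRL against 1, 0 and 179 counts in AAV-VEGF-C. *Jchain*, which joins secreted IgM and IgA and is typical of plasma cells, had 0, 6 and 0 against 4, 0 and 47 counts. AAV-VEGF-C 3 held most counts of both, and both were too low elsewhere to be tested with the usual filter. The 3 genes called by DESeq2 therefore included these 2, and without AAV-VEGF-C 3 the edgeR log2 fold change of *Igkc* was -0.82 (adjusted p = 0.825). *Ms4a1*, which encodes CD20 of mature B cells, had at most 7 counts, also in that library.

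Immunoglobulin variable (V) segments, looked at after the *Igkc* values were seen, showed the same library apart. The 218 V segments summed to 8, 19 and 42 counts in AAV-CTRL against 16, 61 and 325 counts in AAV-VEGF-C. In AAV-VEGF-C 3 the light chain segment *Igkv3-4* had 76.7 counts and the heavy chain segment *Ighv1-64* had 74.6, together 46.6% of the counts over 98 segments, and the next had 6.35. In the other 5 libraries these 2 segments had at most 1 count each and no segment had more than 13. The last 120 coding bases of the 2 germline segments, the end at which rearrangement joins the next segment, are shown because these 2 segments set the library apart. They are the GENCODE M21 reference on GRCm38, *Ighv1-64* at chr12:115507545-115507664 on the minus strand and *Igkv3-4* at chr6:70672258-70672377 on the plus strand, and no base of the sequenced molecules was read.
Ighv1-64: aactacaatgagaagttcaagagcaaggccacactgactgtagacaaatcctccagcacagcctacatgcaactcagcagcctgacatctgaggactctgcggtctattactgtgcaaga
Igkv3-4: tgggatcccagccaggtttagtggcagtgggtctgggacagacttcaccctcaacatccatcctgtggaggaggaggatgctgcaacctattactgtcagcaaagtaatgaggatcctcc
Of the other constant regions in that library, *Ighg1* had 17 counts and *Igha* 15, against at most 1 and 5 counts in any other. *Ighd*, which naive B cells use beside *Ighm*, had 0 there, and 11 and 19 counts in AAV-CTRL 2 and 3.

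**Figure D3:**
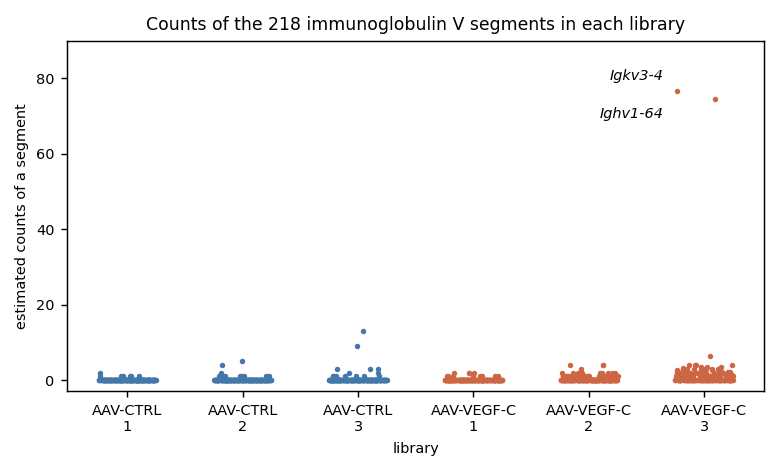
Estimated counts of each of the 218 immunoglobulin V segments (points, spread sideways for sight) in the 6 libraries. *Igkv3-4* (76.7) and *Ighv1-64* (74.6) stand alone in AAV-VEGF-C 3, where every other segment has at most 6.35.

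NK and cytotoxic cell genes had at most 4 counts in any library. *Nkg7*, a granule membrane protein of cytotoxic cells, had 0 counts in each AAV-CTRL library and 1, 0 and 3 in AAV-VEGF-C. *Gzma*, a granzyme, had none in any library, which allows up to the 3-count floors given above. *Gzmb*, another granzyme, and *Klrb1c*, the NK1.1 receptor, had at most 4 and 3 counts. None passed the silent-family level in any library, and none passed the count filter of the edgeR test. Of these 4 genes DESeq2 tested *Nkg7* and *Klrb1c* and called neither (adjusted p = 0.152 and 0.214), while edgeR without a filter tested 3 and called *Nkg7* (adjusted p = 0.0403) on its 4 counts.

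The neutrophil and granule genes were nearly absent from experiment 1 and highest in AAV-VEGF-C 3. Their sum was 0.459, 64.0 and 34.7 CPM in AAV-CTRL against 1.77, 11.8 and 173 CPM in AAV-VEGF-C. Within experiment 2 AAV-VEGF-C had 0.185 times the summed CPM of AAV-CTRL (0.107 to 0.299), and within experiment 3 it had 4.99 times (4.39 to 5.67). With 1 library on each side these ratios have no replicate check, and they point in opposite directions.

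*S100a9*, a calcium-binding alarmin of mature neutrophils and monocytes (chr3:90692632-90695721, minus strand), had 0, 87 and 46 counts in AAV-CTRL against 0, 0 and 112 counts in AAV-VEGF-C. Its CPM was 34.3 in AAV-VEGF-C 3, beside 11.1 and 3.71 in AAV-CTRL 2 and 3. It had 0 counts in 3 libraries, 2 of them AAV-VEGF-C (log2 fold change 1.43, SE 1.56, edgeR adjusted p = 0.596), and without AAV-VEGF-C 3 the sign turned (adjusted p = 0.364). *Ngp* and *Camp*, proteins of the secondary granules, reached 142 and 50 counts in AAV-VEGF-C 3, where their CPM was 9.31 (6.81 to 12.9) and 21.1 (10.3 to 48.8) times that of AAV-CTRL 3. *Ltf*, the secondary granule iron binder lactoferrin, was 4.24 times higher there (3.32 to 5.41). *Mpo* and *Elane* encode enzymes of the primary granules made in early precursors. *Mpo* stood closer, at 1.66 times (1.22 to 2.23), while *Elane*, at 4.43 times (1.9 to 10.5), was near *Ltf*. The counts of *Mpo* were 0, 148 and 149 in AAV-CTRL against 0, 7 and 65 in AAV-VEGF-C. *Ly6g*, the surface marker of mature mouse neutrophils, had 3.43 counts in AAV-VEGF-C 3, 2 in AAV-CTRL 1 and none elsewhere. The other genes, *S100a8* and *Retnlg*, had at most 24 and 11 counts and both were highest by CPM in AAV-VEGF-C 3. Of the 9 genes, 4 were tested between groups and none was called (adjusted p from 0.562 to 0.998).

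Mast cell genes were found at a similar CPM in all libraries as a sum, though not gene by gene. Their sum was 13.3, 18.5 and 19.5 CPM in AAV-CTRL against 21.3, 22.3 and 29.4 CPM in AAV-VEGF-C. The ratio of AAV-VEGF-C to AAV-CTRL was 1.6 (0.794 to 2.93), 1.21 (0.797 to 1.78) and 1.51 (1.18 to 1.92) in experiments 1, 2 and 3, but in TPM the mean sum was lower in AAV-VEGF-C (log2 ratio -0.40). *Kit*, the stem cell factor receptor of mast cells and of several other cell types, had 74, 48 and 92 counts against 7, 14 and 24. These were 11.3, 6.11 and 7.42 CPM in AAV-CTRL against 12.4, 9.76 and 7.36 CPM in AAV-VEGF-C, overlapping and without the fall of experiment 1 (log2 fold change 0.34, SE 0.50, edgeR adjusted p = 0.703). *Hdc*, which makes histamine, had 7, 43 and 97 counts against 4, 11 and 46 (log2 fold change 1.22, SE 0.66, edgeR adjusted p = 0.272). In CPM *Hdc* was at 1.07, 5.47 and 7.82 in AAV-CTRL against 7.09, 7.67 and 14.1 in AAV-VEGF-C, so it was low in AAV-CTRL 1. In that library *Kit* made up 74 of the 87 counts of the mast cell sum.

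The genes more restricted to mast cells had fewer counts than *Kit* in every library, but their transcripts are shorter, and per length they were not lower throughout. In AAV-CTRL 2 *Tpsb2* had 1.46 TPM and *Cma1* 1.12 TPM beside 0.777 TPM of *Kit*, and in AAV-VEGF-C 3 *Mcpt4* had 1.51 TPM beside 0.704 TPM of *Kit*. *Mcpt4*, a chymase of connective tissue mast cells, had 4, 10 and 7 counts in AAV-CTRL against 0, 3 and 11 in AAV-VEGF-C. *Cma1*, *Cpa3* and *Tpsb2*, which encode the other stored proteases, had at most 20, 11 and 20 counts, each reached in an AAV-CTRL library. *Cma1*, *Cpa3* and *Tpsb2* were at 0 or 1 count in experiment 1. In AAV-VEGF-C 3 *Cma1* and *Cpa3* had 1 and 2 counts beside 11 of *Mcpt4*. *Ms4a2*, a chain of the IgE receptor, had at most 2 counts.

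The red cell genes are 2 pairs of near-identical globin genes and *Alas2*, the first enzyme of heme synthesis in red cell precursors. *Hba-a1* and *Hba-a2* encode alpha globin on chromosome 11 and differ at 1 of 426 coding bases, and *Hbb-bs* and *Hbb-bt* encode adult beta globin on chromosome 7 and differ at 1 of 441. The 61 coding bases around each difference are shown, with the base that differs in capitals, because a read within the coding sequence that misses this base matches both genes of a pair. Counted from the first coding base, the changes are C381T from *Hba-a1* to *Hba-a2* and C417T from *Hbb-bs* to *Hbb-bt*. The sequences are from GENCODE M21 on GRCm38, at chr11:32284313-32284373 and chr11:32297130-32297190 on the plus strand and at chr7:103826668-103826728 and chr7:103812659-103812719 on the minus strand.
Hba-a1: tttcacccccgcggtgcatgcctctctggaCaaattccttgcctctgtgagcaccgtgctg
Hba-a2: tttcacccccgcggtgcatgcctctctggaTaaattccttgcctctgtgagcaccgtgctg
Hbb-bs: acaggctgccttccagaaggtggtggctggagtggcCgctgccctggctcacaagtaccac
Hbb-bt: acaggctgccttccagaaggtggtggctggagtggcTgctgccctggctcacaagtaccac
The deposited counts of the single globin genes were fractional and those of each pair added up to whole numbers, so each pair was also summed.

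The alpha pair had 38, 556 and 775 counts in AAV-CTRL against 0, 6 and 200 counts in AAV-VEGF-C, which is 5.82, 70.8 and 62.5 CPM against 0, 4.18 and 61.3 CPM. The beta pair had 14, 373 and 597 counts against 0, 8 and 161, which is 2.14, 47.5 and 48.1 CPM against 0, 5.57 and 49.4 CPM. Both were low in AAV-CTRL 1, AAV-VEGF-C 1 and AAV-VEGF-C 2 and alike in CPM in the other 3 libraries. In TPM the other 3 were less alike, at 77.8, 107 and 45.2 for the alpha pair and 52.2, 73.6 and 36.9 for the beta pair in AAV-CTRL 2, AAV-CTRL 3 and AAV-VEGF-C 3. The groups overlapped, with a log2 fold change of -0.87 for the alpha pair (SE 1.18, edgeR adjusted p = 0.675) and of -0.59 for the beta pair (SE 1.19, adjusted p = 0.796). Summed over the 5 red cell genes, AAV-VEGF-C had 0.0904 times the CPM of AAV-CTRL in experiment 2 (0.0515 to 0.148) and 1.04 times in experiment 3 (0.924 to 1.16). In experiment 1 it had 0 counts, which allows up to 5.31 CPM, beside 65 counts or 9.95 CPM. The log2 ratio of the mean red cell sums, AAV-VEGF-C to AAV-CTRL, was -0.93 in CPM and -1.83 in TPM.

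The single globin genes followed their pairs. *Hba-a2* was the most abundant gene of the 39 in AAV-CTRL 3, at 69.2 TPM, and had 4.54, 49.6 and 69.2 TPM in AAV-CTRL against 0, 1.94 and 28.6 TPM in AAV-VEGF-C (log2 fold change -0.81, SE 1.08, edgeR adjusted p = 0.671). *Hba-a1* had 1.32, 28.2 and 37.9 TPM against 0, 0.751 and 16.6 TPM, *Hbb-bs* 0.843, 30.3 and 47.5 against 0, 3.67 and 22.6, and *Hbb-bt* 1.17, 22.0 and 26.2 against 0, 0 and 14.3. *Alas2* had 13, 40 and 47 counts in AAV-CTRL against 0, 2 and 26 counts in AAV-VEGF-C (log2 fold change 0.16, SE 0.83, edgeR adjusted p = 0.936). It was lowest in the same AAV-VEGF-C libraries as the globins, but AAV-CTRL 1 stood closer to the other AAV-CTRL libraries in it, at 1.99 CPM against 5.09 and 3.79.

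The platelet gene *Ppbp*, a chemokine stored in alpha granules, had 0, 4 and 1 counts in AAV-CTRL against 0, 0 and 2 counts in AAV-VEGF-C, too few to compare.

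**Figure D4:**
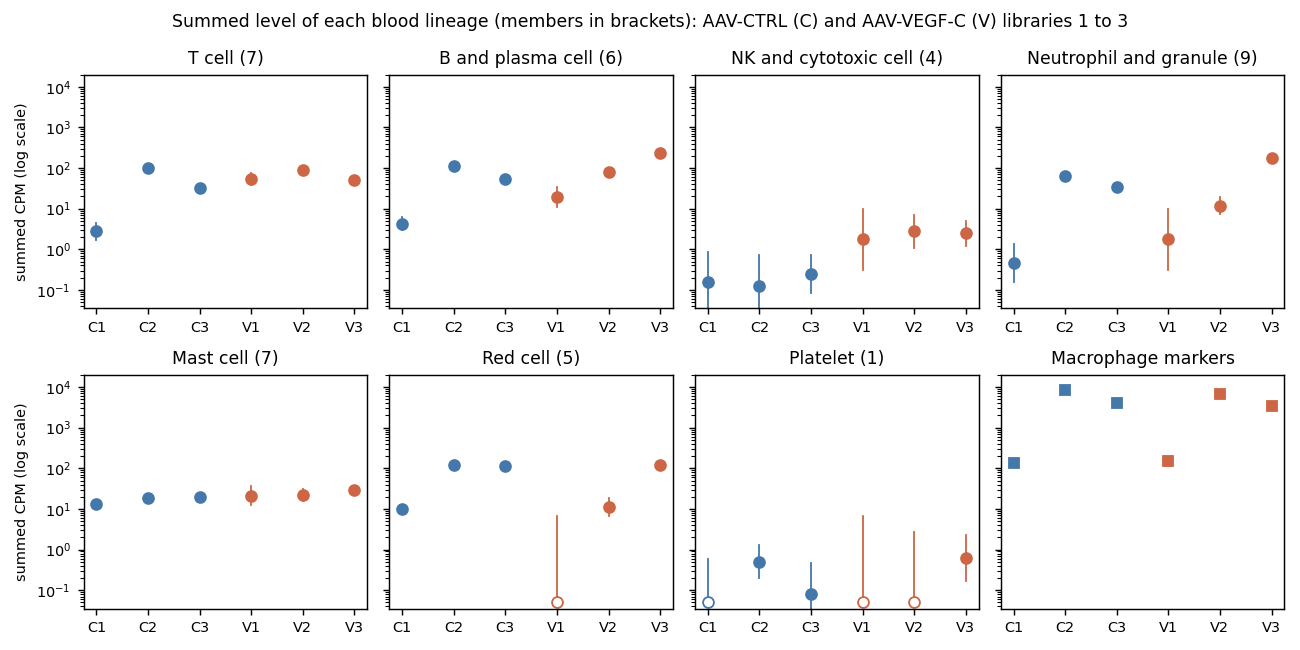
Summed CPM of each lineage (members in brackets) and, as squares, of 14 macrophage markers, on a log axis, in AAV-CTRL (C, blue) and AAV-VEGF-C (V, orange). Bars are 95% Wilson intervals for counting error, open circles at the bottom are 0 counts, and the mast cell sum varies least while the neutrophil and red cell sums vary most.

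Since several lineages fell together in the first experiment, the experiment number was tested with the group in the model, a comparison chosen after the values were seen. Of the 17 genes tested, 2 were called by the F test of edgeR, *Ighm* (log2 differences of 5.59 and 5.37 for experiments 2 and 3 over experiment 1, adjusted p = 0.00944) and *Hbb-bs* (4.63 and 5.54, adjusted p = 0.0329), beside 2.35% of all genes (1.74% in this direction). An unadjusted p under 0.05 in either direction was found for 11 of the 17, beside 1970 of all 17459 genes tested. Among the 11, *Cd3d* was lower in the later experiments, with differences of -1.20 and -3.26 (unadjusted p = 0.0359 by the F test), and the others were higher. For *Cd4* the differences were 4.75 and 2.99 (adjusted p = 0.0622) and for *Mpo* 9.24 and 9.53 (adjusted p = 0.0705). With each globin pair summed, the adjusted p was 0.0582 for beta and 0.155 for alpha, so the call of *Hbb-bs* was lost with its partner counted in. Counting without any fit, 7 of the 17 genes had both libraries of experiment 1 below the other 4 in CPM, beside 14.5% of all genes tested. The count of calls rested on single libraries. It was 1 of 18 tested without AAV-CTRL 1 (1.74% of all genes were called), 1 of 17 without AAV-CTRL 2 (0.785%) and 11 of 18 without AAV-CTRL 3 (5.64%). It was 4 of 25 without AAV-VEGF-C 1 (2.54%), 7 of 26 without AAV-VEGF-C 2 (1.46%) and 11 of 20 without AAV-VEGF-C 3 (7.37%).

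Macrophage genes moved with these values. The 14 macrophage markers, among them *Csf1r* and *C1qa*, summed to 135, 8620 and 4130 CPM in AAV-CTRL against 152, 6820 and 3420 CPM in AAV-VEGF-C. Of the 14, 13 were called between experiments and none between groups, with a median log2 change of -0.18 in AAV-VEGF-C. Counts were therefore also set beside the counts of these markers in experiments 2 and 3, a ratio chosen after the values were seen. *Cd4* had 11.4 and 7.62 counts per 1000 marker counts in AAV-CTRL against 11.4 and 8.61 in AAV-VEGF-C. *Ighm* had 12.3 and 11.8 against 10.5 and 45.3. *Cd4* thus had nearly the same ratio in both groups of experiments 2 and 3, *Ighm* was similar in 3 of these 4 libraries, and AAV-VEGF-C 3 stood apart for *Ighm*. In experiment 1 *Cd4* had 6.78 per 1000 in AAV-CTRL against 81.4 in AAV-VEGF-C, on 6 and 7 counts beside 885 and 86 marker counts. *Ngp* went from 1.62 and 1.13 in AAV-CTRL to 0.204 and 12.7 in AAV-VEGF-C and did not follow the macrophage markers. The alpha globin pair had 8.21 and 15.1 against 0.613 and 17.9, with AAV-VEGF-C 2 apart. The part of macrophages in the levels of *Cd4* and *Ighm* was not tested.

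**Figure D5:**
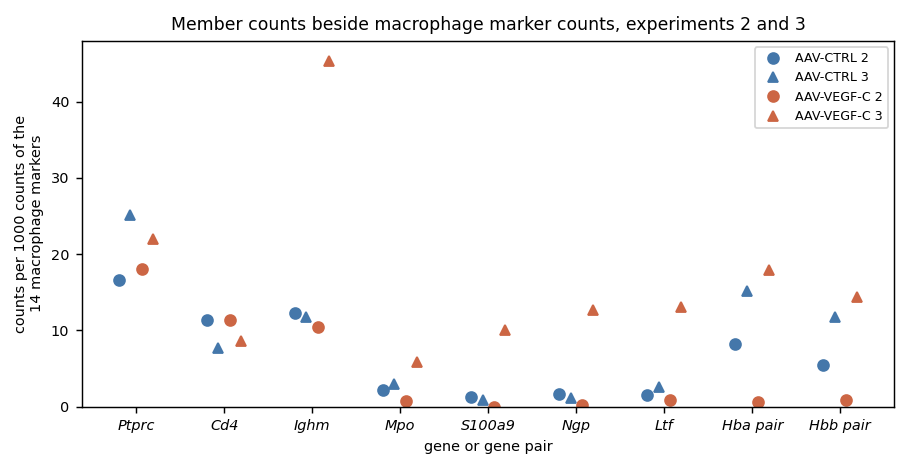
Counts of *Ptprc*, 6 genes of the list and the globin pairs per 1000 counts of the 14 macrophage markers in experiments 2 (circles) and 3 (triangles), AAV-CTRL in blue and AAV-VEGF-C in orange. The *Cd4* points lie between 7.62 and 11.4, while for *Ighm*, *S100a9*, *Ngp* and *Ltf* the AAV-VEGF-C 3 point lies far above the other 3.

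A wider list of 106 genes of the same lineages was read from the same fit. Of the 46 tested, 19 were called higher in AAV-VEGF-C and none lower, beside 10.5% higher and 0.659% lower of all genes tested. The median log2 fold change of the 46 was 2.07, beside -0.00372 over all genes tested. It was 1.3 over the genes tested with a mean TPM under 2 and 5.06 over the silent-family genes tested. The 19 were T cell (6), B and plasma cell (3), NK (3), neutrophil (1), red cell (3) and platelet (3) genes. Among the T cell genes were *Cd5* and *Cd6*, inhibitory coreceptors, *Cd27*, a costimulatory receptor, *Il7r*, the interleukin-7 receptor, and the adaptor *Skap1*. The B cell genes were *Pax5*, the factor that holds B cell identity, *Cr2*, a complement receptor, and *Ighg2b*, and the NK genes were the factors *Eomes* and *Tbx21* and the receptor *Klre1*. *Cxcr2*, a chemokine receptor, *Hemgn*, *Rhd* and *Epb42* of red cells, and *Itga2b*, *Gp6* and *Treml1* of platelets made up the rest of those named.

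These calls concerned very low genes. *Pax5* had 0, 5 and 4 counts in AAV-CTRL against 9, 15 and 29 counts in AAV-VEGF-C (log2 fold change 5.23, SE 0.90, edgeR adjusted p = 0.0195). *Cd6* had 0, 5 and 0 against 9, 14 and 40 (5.97, SE 1.16, adjusted p = 0.0224). The mean TPM was under 2 for 18 of the 19, and in 18 no AAV-CTRL library held more than 12 counts. Only *Itga2b*, the integrin chain of platelets and their precursors, was above the silent-family level in all 3 AAV-VEGF-C libraries, with 5.07, 2.96 and 4.42 TPM in AAV-CTRL against 3.09, 4.38 and 5.998 TPM in AAV-VEGF-C (log2 fold change 2.04, SE 0.44, edgeR adjusted p = 0.0275). In TPM its groups overlapped. Of all genes tested with a mean TPM under 2, 26.3% were called higher, and of the silent-family genes tested 86.6%. With the silent-family background subtracted none of 29 tested in the list was called, beside 0.0721% of all genes. Without AAV-CTRL 1 there were 11 of 49 (9.73% of all genes), without AAV-VEGF-C 1 there were 9 of 55 (6.13%), and without both 11 of 53 (9.79%). None was called without AAV-CTRL 2, AAV-CTRL 3, AAV-VEGF-C 2 or AAV-VEGF-C 3, among 48, 49, 63 and 47 tested, where 0, 0, 8 and 320 of 18220, 18087, 20250 and 18549 genes were called higher.

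The most abundant genes of the wider list were not among these calls, apart from *Itga2b*. *Pf4*, a platelet chemokine that some macrophages also make, had 2, 1018 and 776 counts in AAV-CTRL against 9, 108 and 243 in AAV-VEGF-C (edgeR adjusted p = 0.981), beside at most 4 of *Ppbp* in a library. *Bank1*, a B cell adaptor, had 3, 425 and 406 against 1, 133 and 95 (adjusted p = 0.785), and *Hpgds*, a prostaglandin D synthase of mast cells and macrophages, 5, 580 and 641 against 0, 107 and 104 (adjusted p = 0.984). All 3 showed the low first experiment of *Cd4* and *Ighm*. *Fech* and *Bpgm*, used in heme and red cell metabolism, *Tph1*, which makes serotonin, *Tcf7* and *Cd247* of T cells, *Cd37* of B cells, and *Csf3r* and *Mmp9* of neutrophils were tested and not called between groups (adjusted p from 0.209 to 0.901). *Ccl5* and *Klrk1* were too low to be tested. Between experiments *Bank1*, *Csf3r*, *Mmp9* and *Hpgds* were called (adjusted p from 0.0021 to 0.0467).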

How the data were processed

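LEC RNA was extracted with a micro-scale column kit and made into libraries with a stranded total RNA kit for small amounts of RNA. The submitters' processing notes name FastQC, Trimmomatic, DRAGEN, Picard and mm10, with no version, and the counting program, its use of strand and of molecular identifiers are not given in the sources used here. The authors deposited an estimated count for each gene and library, unscaled, and TPM values that correct for gene length and library total. Of the gene identifiers 98.1% equal GENCODE M21 on GRCm38 (mm10), which gave positions and sequences. Some listed genes overlap others in that annotation (*Cd3e*, *Lck*, *Ms4a1*, *Igkc*, *Klrb1c*, *Mpo*, *Cpa3* and *Alas2*) and are uncertain to that extent, as are the immunoglobulin segments, which share sequence.

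Counts were rounded. Genes passing filterByExpr of edgeR 4.0.16 (R 4.3.3) were normalised by TMM, and the 2 groups were compared over 6 libraries with its quasi-likelihood test, the p-values adjusted after Benjamini and Hochberg over all 17459 genes at a threshold of 0.05. The SE given with an edgeR log2 fold change is its absolute value divided by the square root of the F statistic. It is not an SE reported by the fit and is approximate, above all for genes with libraries at 0. The study used DESeq2, run here as an alternative (1.42.0). Other alternatives were scalings, filters, limma 3.58.1 on log2(TPM + pseudocount) with pseudocounts of 1 and 0.1, subtraction of the silent-family level, the replicate block, and leaving out each library. Single values were compared by exact permutation. CPM intervals are 95% Wilson intervals, and ratios within an experiment have exact binomial intervals. Both describe the error of counting alone, as a read need not be a separate molecule. The fits were tested on simulated data, with a limited spread between libraries, changes only in genes of higher CPM and no silent-family difference between the groups. This does not show how they behave on genes as low and variable as many of those listed.

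The groups, and the experiment numbers, came from the labels. After subtraction of the group means, the 2 libraries of an experiment correlated over genes at 0.37, 0.28 and 0.15 in experiments 1, 2 and 3. For libraries of different experiments it was at most 0.22, and genes are not independent replicates. The 0.15 of experiment 3 was below the 0.22 of AAV-CTRL 3 with AAV-VEGF-C 2. The numbers were taken to pair the libraries from the labels, and the correlations go with this in experiments 1 and 2 only. The labels do not say whether animals of different libraries came from separate litters. The listed genes, the wider list and the macrophage markers were chosen with earlier results of these data known. Values in each library are given for the most abundant gene of a lineage, for genes called, and for those above the silent-family level in all 3 libraries of a group. Of the wider list the 2 most abundant genes of a lineage and up to 5 called were named. *Cd79b*, *Mpo*, *Jchain*, *Ngp* and other genes with values beyond this rule, the V segments, the experiment test, the macrophage ratio and the globin sums were chosen after the values were seen.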

Additional observations from a re-analysis of the deposited data

How the results depend on the processing

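The count of listed genes called higher in AAV-VEGF-C was 0, and became 3 by DESeq2, 7 without a filter on counts (each with more genes tested) and 1, *Cd3d* (log2 fold change 3.54, adjusted p = 0.0308), with the replicate block that pairs the libraries of an experiment. The block changed no other call among them. No setting tried called one lower. In the wider list the count was 19 of 46 tested, beside 10.5% of all genes. With the share of all genes in brackets, it was 31 of 90 by DESeq2 (18%), 37 of 103 without a filter (21.1%), 0 of 10 at a mean TPM of at least 5 (0.119%), 11 and 12 of 46 by limma with pseudocounts of 1 and 0.1 TPM (6.37% and 7.34%), 0 of 29 with the silent-family background subtracted (0.0721%), 18 of 46 with the block (12.8%), and 0 to 11 with libraries left out. Between experiments the count of listed genes was 2 of 17 (2.35%), and 8 of 15 by DESeq2 (4.6%), 5 of 17 by library size alone (2.53%), 11 of 38 without a filter (2.5%), 1 of 9 at a mean TPM of at least 5 (3.32%), 9 and 7 of 17 by the same limma fits (2.78% and 1.41%), and 1 to 11 with libraries left out, and that of the wider list was 4 of 46, and 2 to 8 with libraries left out. The cause of these shifts was not tested.

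Scaling on the 2000 most abundant genes raised the median of all genes by 0.45, and limma on TPM lowered it to -0.72 and -1.04. Signs of uncalled genes turned. For *Cd4* they were -0.10 by DESeq2, -0.0585 by library size alone, -0.21 without a filter, -0.20 by limma (pseudocount 1), and from -0.99 to 1.56 with single libraries left out and -0.32 without both of experiment 1. For *Ighm* they were -0.21 and -0.41 by limma and -0.45 (without AAV-VEGF-C 3) to 1.79 with single libraries left out, and for *S100a9* -0.73 and -1.77 by limma and -7.92 (without AAV-VEGF-C 3, so that no AAV-VEGF-C library held a count) to 2.84. *Kit* was at -0.52 and -0.89 by limma and -0.49 after background subtraction, and *Hbb-bs* at 0.0863 on the abundant genes. *Alas2* was at -0.0351 by DESeq2, -0.0805 without a filter, -0.71 and -1.94 by limma, -0.00529 after background subtraction, -0.31 with the block, and -1.89 to 0.45 with single libraries left out, below 0 (-0.13) also without AAV-CTRL 1. The mast cell sum was lower in AAV-VEGF-C in TPM (log2 ratio -0.40) and higher in CPM (0.51), and depth limits every gene under the floor of 5.31 CPM in AAV-VEGF-C 1.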

Other observations

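T cell receptor variable segments and the delta constant region lie outside the listed genes. The 144 variable segments summed to 3, 4 and 8 counts in AAV-CTRL against 13, 37 and 152 counts in AAV-VEGF-C, spread in AAV-VEGF-C 3 over 74 segments with at most 7 counts each, unlike the immunoglobulin segments of that library. *Trdc*, the constant region of the delta chain of gamma delta T cells, had 4, 2 and 3 counts in AAV-CTRL against 28, 28 and 15 in AAV-VEGF-C. It was the top constant segment in every AAV-VEGF-C library and also in AAV-CTRL 1 and AAV-CTRL 3. The alpha and beta constant regions summed to 3, 15 and 1 counts in AAV-CTRL against 1, 2 and 6 in AAV-VEGF-C. The silent families had 16.9 to 29.2 times the CPM in AAV-VEGF-C when single libraries were left out, and their part in these values was not tested.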
